A study of Mus musculus with 8 samples.

Results

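miR-17 was expressed from a lentivirus in primary neurospheres, and their RNA was compared with that of neurospheres given a control miRNA against lacZ. Each side was 1 array, and a gene entered when its probe was well above background on at least 1 of the 2 arrays. This left 26728 of the 35682 named features on the array, of which 15695 carried a gene name and 11033 a placeholder name. The lowest signal that counted as well above background was -5.65 on the miR-17 array and -6.32 on the control array, on a log2 scale where 0 is the 75th percentile of that array, and all levels below are on this scale.

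The starting cells were EB3, a line of mouse embryonic stem cells, which formed embryoid bodies in the presence of Noggin, a BMP antagonist. These were dissociated on day 6, infected at a multiplicity of about 25 and grown for 6 days as floating spheres with FGF2 at 20 ng/ml. The spheres are the P0, or primary, neurospheres, and the labels call their cells NSPCs. The study also measured primary spheres with a control shRNA against firefly luciferase and with an shRNA against both Nr2f1 and Nr2f2, and the same 4 conditions in tertiary spheres (P2), with 1 array for each of the 8 groups. All 8 groups carried a lentivirus, and the labels give no promoter, no uninfected culture and no second culture of any group. A difference between the miR-17 and control arrays therefore had no replicate check, and the spread between cultures is unknown.

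MicroRNAs pair with messenger RNAs mainly through a short seed near their 5′ end, which lowers the stability and translation of the bound transcripts. miR-17 belongs to a polycistron that is active in proliferating progenitors, and a family of related miRNAs shares its seed. In neural progenitors this family is known for acting on cell cycle and p38 MAP kinase genes, and p38 (Mapk14) has been reported as a target through which miR-17 keeps progenitors neurogenic. Of 1679 different mature mouse miRNA sequences held by RefSeq (GRCm38.p6), 7 share the miR-17 seed. They are shown with bases 2 to 8, the seed, in capitals, because a seed match of miR-17 is also one of the others, together with miR-17-3p from the other arm of the hairpin.
mmu-miR-17-5p: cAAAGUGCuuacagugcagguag
mmu-miR-20a-5p: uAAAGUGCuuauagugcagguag
mmu-miR-20b-5p: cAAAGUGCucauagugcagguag
mmu-miR-93-5p: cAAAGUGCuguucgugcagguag
mmu-miR-106a-5p: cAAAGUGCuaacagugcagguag
mmu-miR-106b-5p: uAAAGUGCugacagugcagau
mmu-miR-6383: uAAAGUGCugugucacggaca
mmu-miR-17-3p: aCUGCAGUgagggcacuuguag
miR-106a-5p differs from miR-17-5p at 1 position, miR-20a-5p and miR-20b-5p at 2 each, and miR-93-5p at 4. The array reads long polyadenylated RNA, so the mature miRNA itself was not measured and the transgene was not checked. The probe for Mir17hg, the host transcript of the chromosomal cluster, lies at chr14:115445828-115445887 (mm9). It read 1.41 with miR-17 and 1.65 with the control miRNA, and 2.25 and 2.54 on the control shRNA and Nr2f1/2 shRNA arrays. A lentiviral copy need not pass through this probe.

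Defining markers of neural progenitors were present on both arrays. Of 20 neural stem and progenitor genes all 20 were well above background on each, among them Sox2 at 2.74 with miR-17 and 3.23 with the control, Nes at 2.85 and 3.20, and Hes5 at 6.61 and 6.53. Neuronal genes were also bright, as Tubb3 (4.88 and 4.62) and Stmn2 (4.98 and 4.46). In RNA from whole spheres, fewer cells of a type and less RNA per cell cannot be told apart. The 4 miRNA arrays lay in column 2 of the slide and the 4 shRNA arrays in column 1, with the primary control and miR-17 arrays in rows 1 and 2. Of their spots, 65.0% (control) and 67.9% (miR-17) were well above background, and none was saturated. The upper-quartile intensity was 553 and 530.

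At 2-fold or more, 1383 genes (5.17%) were higher with miR-17 and 510 (1.91%) were lower. For 675 of the 1383 the probe was not well above background on the control array, and for 214 of the 510 it was not on the miR-17 array. Among the 24650 genes measured on both arrays, 684 (2.77%) were higher and 287 (1.16%) lower. By any amount, 13621 genes (51%) were higher and 13107 (49%) lower. For comparison, the arrays of the 2 controls (miRNA and shRNA) differed by 2-fold in 21.7% of genes at P0, against 7.08% between miR-17 and its control. The Nr2f1/2 shRNA and control shRNA arrays differed in 5.01% at P0.

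The size and sign of the differences varied with signal. Among the dimmest 5346 genes the median difference was 0.32 and 20.9% of genes were past 2-fold, while among the brightest 5346 the median was -0.18 and 0.935% were. Spots of the same probe, printed 10 times, varied within each array. Combined over both arrays, the SD of a single-spot difference was 0.45 in the 105 dimmest such probes and 0.08 in the 105 brightest. This describes spot noise and not culture noise. With a smooth trend on level removed, a correction added after the data were seen, 746 genes were higher and 864 lower, so the excess of higher genes (73.1% of those past 2-fold) became 46.3%. It was 53.5% after quantile normalization and 57.6% with normexp background correction. For this reason the lists described one by one below have their median before and after that correction, beside a median over all genes of 0.01 before and -0.02 after. A member measured only on the array where it is bright had its direction set by the filter. Lists that hold such members are therefore also given over the genes measured on both arrays. Lists from which no direction is read below are the exception. A further description used a set of 27457 genes and no level correction. There the miR-17 array was 2-fold or more above all 3 other primary arrays in 877 genes, against 144 to 209 for each of the others. It was 2-fold or more below them in 171, against 880 for the control shRNA array and 182 and 228 for the other 2.

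**Figure D1:**
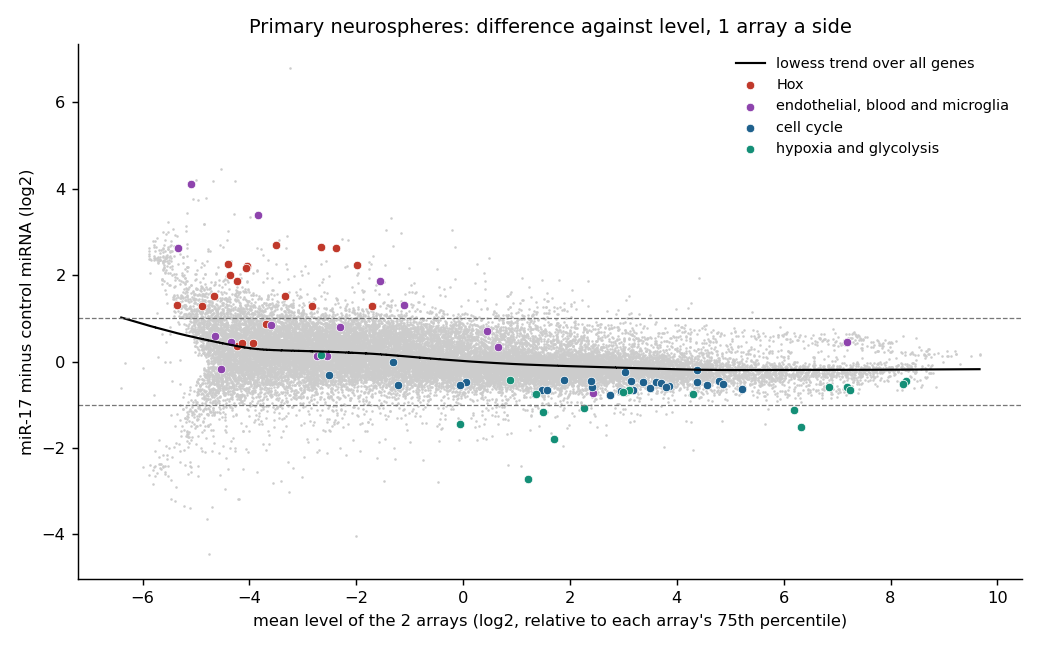
Difference between the miR-17 and control miRNA arrays (log2) against the mean level of both (log2 relative to each array's 75th percentile), 1 grey point a gene, with members of 4 gene lists in colour, the lowess trend as a line and 2-fold as dashed lines. The trend runs from above 0 in dim genes to below 0 in bright ones, Hox genes lie above it, and cell cycle and hypoxia genes lie mostly below it.

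Endothelial genes stood out among single genes that were higher with miR-17. Of the 12 genes with the largest difference among those measured on both arrays, Cd93, Icam2, Cd34, Esm1 and Pcdh12 are known from blood vessel endothelium, a theme read from the names after the values were seen. Cd93, a membrane glycoprotein, read 0.30 with miR-17 against -3.02 with the control miRNA, -4.44 with the control shRNA and -3.63 with the Nr2f1/2 shRNA, a difference of 3.32 from its control. Cd34, a sialomucin of endothelium and blood progenitors, read 1.19 against -1.48, -3.57 and -2.998. Icam2, an adhesion molecule, read 0.09 against -2.96, -5.60 and -4.28, and Esm1, a secreted proteoglycan, read -0.84 against -3.69, -6.76 and -7.15. In each of these the miR-17 array was the highest of the 4 and the control miRNA array the second, above both shRNA arrays. The protease inhibitor-like genes Ctla2a and Ctla2b, the Notch target Heyl and the adhesion gene Madcam1 followed with differences of 3.05, 2.98, 2.80 and 2.68. The second Madcam1 probe, a dimmer one, differed by 0.75.

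The list of 19 endothelial, blood and microglial markers held 12 that were measured on both arrays. Of these 10 were higher with miR-17 and 2 lower, and 2 were past 2-fold higher (against 2.77% of all genes on both arrays), with a median of 0.46 and of 0.47 after the level correction. A further 4, including Cdh5, Tie1 and Gata1, were measured on the miR-17 array only, and with them the median was 0.65 (0.58 after the correction). Cdh5, the VE-cadherin of endothelial junctions, read -2.13 with miR-17 and was not well above background on the control array, a difference of at least 10.5-fold. Tie1, an endothelial receptor tyrosine kinase, was at least 9.66-fold higher and the erythroid factor Gata1 at least 4.91-fold. The tight junction gene Cldn5 read -0.62 against -2.48 and the globin gene Hba-a1 read -0.45 against -1.76. Other defining members did not share this: Kdr, the VEGF receptor, was lower (2.06 against 2.79), Pecam1 read -2.67 against -2.79, and Tek was not measured. The microglial genes Aif1 and Csf1r differed by -0.18 and 0.33. The summed signal of the list was 7.50 with miR-17, 7.08 with the control miRNA, and 5.32 and 5.51 on the shRNA arrays, most of it on the miRNA arrays from Itgam (7.42 and 6.96). On 13 of the 16 genes the miR-17 array was the highest of the 4 primary arrays, against 33.5% of all genes. For the 4 measured on the miR-17 array only, a place above the control was set by the filter, which fixed part of that count. In tertiary spheres the list stood at 0.05, with 8 of 12 measured members higher, and Cd93 and Cd34 differed by 0.70 and 0.08, while Icam2 was at least 1.54-fold higher.

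Some mesenchymal genes were higher as well. Of 20 measured neural crest and mesenchyme genes 12 were higher, 5 of them past 2-fold (against 5.17% of all genes), and 8 were lower, none past 2-fold (median 0.45, and 0.42 after the correction). The collagen gene Col1a1 read 1.14 with miR-17, -0.69 with the control miRNA, and -2.11 and -1.76 with the control and Nr2f1/2 shRNAs. Twist2, a mesenchymal bHLH factor, read -2.21 against -3.90, -7.03 and -7.06, and the pericyte receptor gene Pdgfrb read 0.17 against -1.03, -1.52 and -1.63. Decorin (Dcn) and lumican (Lum), matrix proteoglycans, went the other way by -0.35 and -0.19. The summed signal was 5.48 with miR-17, 4.87 with the control miRNA, and 3.71 and 3.83 with the shRNAs. Whether vascular or mesenchymal cells took part in the differences of neural genes described next was not tested.

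**Figure D2:**
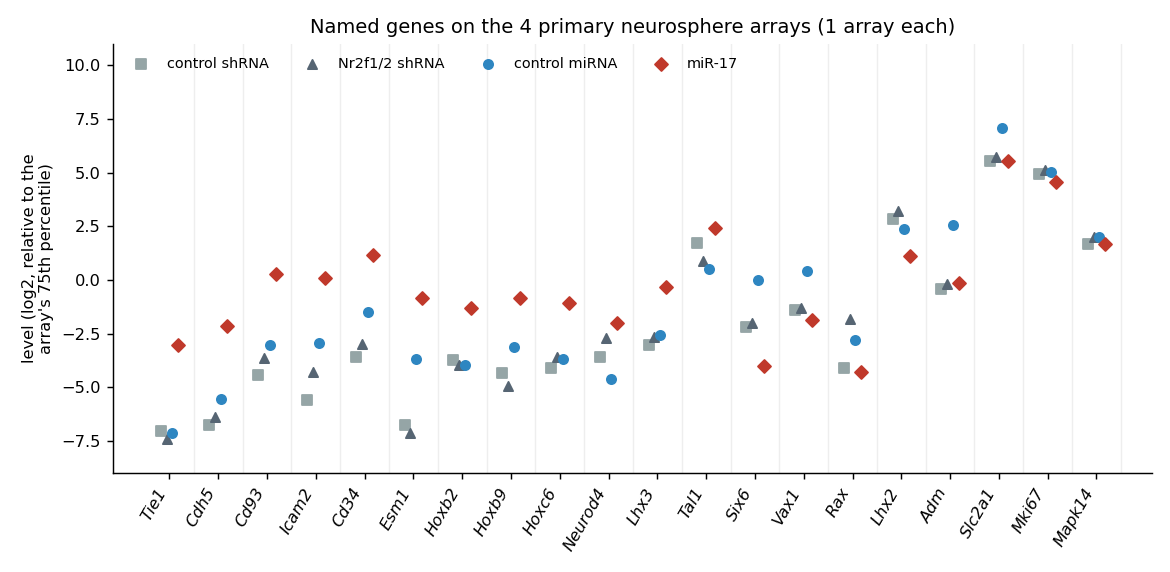
Level (log2 relative to each array's 75th percentile) of 20 genes on the 4 primary neurosphere arrays, 1 point an array. Endothelial and Hox genes are highest on the miR-17 array, Six6 is lowest there, and for Adm and Slc2a1 it is the control miRNA array that lies above the other 3.

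Hox genes, which set position along the hindbrain and spinal cord, were mostly higher with miR-17. Of 27 listed, 11 were measured on both arrays, and all 11 were higher, 7 of them past 2-fold, against 2.77% of all genes on both arrays. Their median was 1.29, and 1.11 after the level correction. Another 8 were measured on the miR-17 array only, which makes them higher by selection. With no filter on dim probes 24 of the 27 were higher and 3 lower, 16 and 1 of them past 2-fold. Hoxb2, a hindbrain gene, read -1.33 with miR-17 against -3.98 with the control miRNA, -3.72 with the control shRNA and -3.96 with the Nr2f1/2 shRNA. Hoxc6, a gene of brachial and thoracic levels, read -1.07 against -3.70, -4.12 and -3.61. Hoxb9, a thoracic gene, read -0.87 against -3.11, -4.36 and -4.95. The other 3 arrays lay at least 2.24 below the miR-17 array for these genes. The differences were not confined to any axial level: Hoxb1 and Hoxb2 differed by 2.00 and 2.66, Hoxa3 and Hoxd4 by 1.29 and 1.51, and Hoxa7 by 1.29.

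Levels were low, and for the 8 genes measured on the miR-17 array only, such as Hoxb7 (at least 4.79-fold), Hoxb6 (at least 4.66-fold) and Hoxc9 (at least 6.47-fold), the control array gives only a bound. Over all 19 the median was 1.51, and 1.25 after the level correction. The smallest differences were in Hoxa6 (0.37), Hoxa9 (0.43) and Hoxc5 (0.44), which were 0.01, 0.09 and 0.14 after the level correction. With normexp background correction, which draws dim values together, 4 of the 19 were past 2-fold and the list median was 0.65, the lowest of the settings run. The miR-17 array was the highest of the 4 primary arrays for 18 of the 19, against 33.5% of all genes. For the 8 measured on that array only, a place above the control was set by the filter, which fixed part of that count. At P2 the miR-17 and control arrays differed by 2-fold in 4.94% of genes, 3.6% higher and 1.34% lower. There all 13 Hox genes measured on both arrays were lower with miR-17 (median -0.53), and 3 more, measured on the miR-17 array only, were higher. Of those 3, Hoxd4 was at least 2.31-fold higher, and among the 13, Hoxc6, Hoxc9 and Hoxb9 were lower by over 2-fold (-1.39, -1.27 and -1.10).

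**Figure D3:**
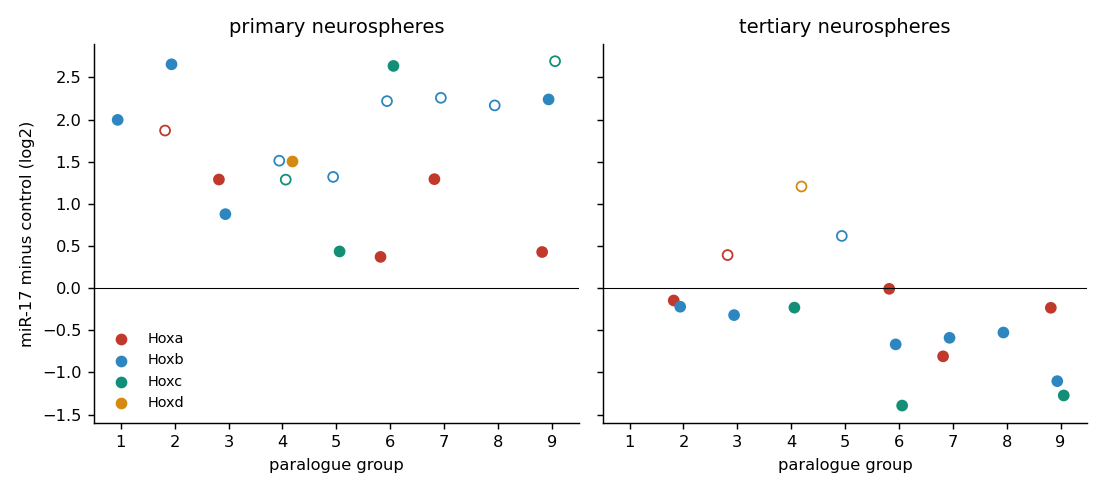
Difference between miR-17 and control miRNA (log2) for each measured Hox gene by paralogue group, colours giving the cluster, in primary (left) and tertiary (right) neurospheres, 1 array a side, with open points for genes not well above background on 1 of the 2 arrays. The 11 filled points lie above 0 in primary spheres, and the 13 filled points lie below 0 in tertiary ones.

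Several forebrain and eye-field genes were among the lowest. Of 24 forebrain and midbrain genes 14 were lower and 10 higher, with a median of -0.12 (-0.25 after the level correction), and 7 were lower by over 2-fold, against 1.91% of all genes. On both arrays 22 were measured, of which 14 were lower, 7 past 2-fold (against 1.16%), with a median of -0.19. Six6, an eye-field and hypothalamic homeobox gene read at chr12:74045825-74045884, gave the lowest difference of any named gene measured on both arrays. It read -4.03 with miR-17 and 0.01 with the control miRNA, and -2.17 and -1.999 with the control and Nr2f1/2 shRNAs, so the 2 shRNA arrays lay between. Vax1, a homeobox gene of the optic stalk, read -1.89 against 0.40, -1.41 and -1.33, and its second probe differed by -2.23 against -2.28. Lhx2, a LIM homeobox gene of forebrain and eye, read 1.14 against 2.39, 2.84 and 3.24.

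The zinc finger genes Fezf2 and Fezf1 differed by -1.33 and -1.26, the eye-field gene Rax by -1.51 and the ventral forebrain gene Nkx2-1 by -1.20. The miR-17 array was the lowest of the 4 primary arrays for 10 of the 24 genes, against 27.7% of all genes. The forebrain interneuron genes Dlx1, Dlx2 and Dlx5 differed by 0.08, -0.04 and 0.21, and the anterior gene Otx2 by -0.48. Dmbx1, a midbrain homeobox gene, differed by 1.44 and was the 1 member past 2-fold higher among those measured on both arrays. In tertiary spheres 12 of 20 measured members were higher with miR-17, Lhx2 by 1.08 and Nkx2-1 by at least 3.59-fold, and Six6 differed by 0.39. The probe for Fezf2 differed there by 0.65.

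Most genes of neuron formation were higher. Of 27 proneural and neurogenesis genes, all measured on both arrays, 22 were higher, 6 past 2-fold (against 2.77% of all genes on both arrays), and none was 2-fold lower (median 0.59, and 0.62 after the level correction). Neurod4, a bHLH factor of neuronal differentiation, read -2.0002 with miR-17 against -4.63 with the control miRNA, -3.59 with the control shRNA and -2.69 with the Nr2f1/2 shRNA. Neurog2, a proneural factor, read 1.96 against 0.81, 2.55 and 1.73. Neurod1 read -0.30 against -1.63, with the shRNA arrays at -0.0011 and -0.05. For both of these genes the control miRNA array was the low one of the 4, and the miR-17 array lay close to or within the values of the shRNA arrays. The control miRNA array was the lowest of the 4 for 12 of the 27 genes, against 18.9% of all genes. The miR-17 array was the highest for 13, against 33.5%.

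The differentiation genes Ebf3, St18, Ebf1, Insm1 and Scrt1 differed by 1.09, 1.03, 0.91, 0.84 and 0.83, while the Notch ligand gene Dll1 differed by -0.16. Eomes, a factor of intermediate progenitors, was lower (-0.79). Of 25 neuron genes 22 were higher (median 0.50, and 0.61 after the correction) and only Elavl4, an RNA-binding protein of postmitotic neurons, reached 2-fold, at 3.65 against 2.65; after the level correction 2 of the genes did. The neurofilament genes Nefm and Nefl differed by 0.80 and 0.75, Dcx by 0.60, Stmn2 by 0.52 and Tubb3 by 0.26. Here the control shRNA array was the highest of the 4 for 15 of the 25 genes, against 23.9% of all genes. The control miRNA array was the lowest for 13, against 18.9%. In tertiary spheres the medians were 0.75 for proneural and 0.47 for neuron genes. Over the 22 proneural and 24 neuron genes measured on both arrays there, the medians were 0.63 and 0.46. Of those 22 proneural genes 16 were higher and 6 lower, and 7 were past 2-fold higher, among them Ebf3 at 1.68. Neurod1, measured on the miR-17 array only, was at least 3.098-fold higher.

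Most listed subtype genes were higher too. Of 14 motor neuron genes, all measured on both arrays, 12 were higher and 5 past 2-fold (against 2.77% of all genes on both arrays), with a median of 0.76. After the level correction the median was 0.59 and 4 were past 2-fold. Lhx3, a LIM homeobox gene of motor neurons and ventral interneurons, read -0.34 with miR-17 against -2.57 with the control miRNA and -3.04 and -2.67 with the shRNAs. Its relative Lhx4 read 0.34 against -1.21, -1.17 and -1.07. The choline transporter gene Slc5a7 and the vesicular acetylcholine transporter gene Slc18a3 differed by 1.61 and 1.12, and Phox2a, a factor of visceral motor neurons, by 1.12. Isl1 and Olig2, which also mark motor neuron precursors, were slightly lower (-0.48 and -0.22). The miR-17 array was the highest primary array for 12 of the 14 genes, against 33.5% of all genes.

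Of 30 interneuron and other subtype genes 24 were higher, 7 past 2-fold, and 2 were 2-fold lower, against 5.17% and 1.91% of all genes (median 0.45, and 0.39 after the correction). Over the 26 measured on both arrays 21 were higher, with a median of 0.38. Tal1, Gata2 and Gata3, which specify inhibitory interneurons of hindbrain and spinal cord, read 2.41, 1.12 and 2.26 with miR-17 and 0.53, -0.30 and 0.86 with the control miRNA. Tal1 read 1.74 and 0.87 with the control and Nr2f1/2 shRNAs. Tal1 and Gata2 are also used by blood and endothelial cells. Of the 12 endothelial, blood and microglial markers measured on both arrays 10 were higher and 2 lower, Kdr among the lower. Whether such cells took part in the Tal1 and Gata2 differences was not tested. Th, the rate-limiting enzyme of dopamine synthesis, read 2.10 against 0.37, and Sim1, a bHLH-PAS factor, -2.22 against -4.36. The transmitter genes Gad1, Gad2, Slc32a1 and Slc17a6 differed by -0.09 to 0.35.

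Among 27 dorsoventral patterning genes 7 were 2-fold higher and 1 lower, against 5.17% and 1.91% of all genes (median 0.27, and 0.35 after the correction). Over the 26 measured on both arrays the median was 0.27, and 0.31 after the correction. The ventral genes Nkx6-1 and Foxa2 differed by 1.29 and 1.09, Irx3 and Irx5 by 1.41 and 2.14, and the roof plate gene Lmx1a by 1.12, while Olig1 differed by -1.37. The dorsal genes Pax3 and Msx2 differed by 0.13 and 0.27. Both ventral and dorsal members were thus among those that were higher. Crabp2, a retinoic acid binding protein, read 5.38 with miR-17, 3.44 with the control miRNA, and 5.15 and 4.96 with the control and Nr2f1/2 shRNAs, so it was the control miRNA array that lay apart.

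**Figure D4:**
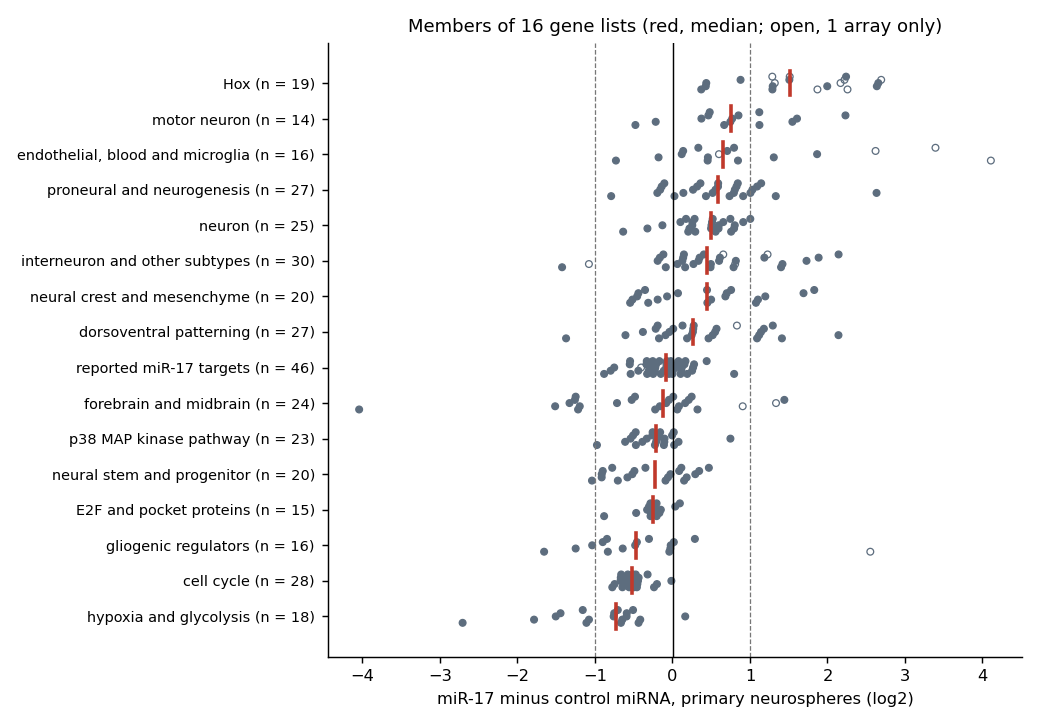
Difference between miR-17 and control miRNA in primary neurospheres (log2) for the measured members of 16 gene lists, 1 point a gene, with open points for genes well above background on 1 array only, the list median in red, the median of all genes as a solid line and 2-fold as dashed lines. The filled Hox points lie above 0 and the cell cycle points below it, while members of the reported target list spread on both sides of 0.

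Most gliogenic regulators were lower. Of 16 genes 13 were lower, 3 past 2-fold (against 1.91% of all genes), and the median was -0.47 (-0.42 after the level correction). After that correction 10 were lower and 6 higher, as after quantile normalization. Over the 15 measured on both arrays 13 were lower, with a median of -0.48 (-0.52 after the correction). Mlc1, a membrane protein of radial glia and astrocytes, read 0.07 with miR-17 against 1.72 with the control miRNA, 1.39 with the control shRNA and 0.96 with the Nr2f1/2 shRNA. The nuclear factor I genes Nfia, Nfib and Nfix, which open the gliogenic phase, differed by -0.84, -0.64 and -0.48. Id1, a BMP target, read 0.86 against 1.89, 0.64 and 0.72, so again the control miRNA array was above the other 3. Hes1 and Id3 differed by -0.90 and -0.83, and Sox9 and Zbtb20 by 0.02 and 0.29. Sox8 went the other way, at least 4.04-fold higher, from a level at which only the miR-17 array measured it. In tertiary spheres 13 of 16 were again lower (median -0.29), none of the 13 by 2-fold.

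Radial glia and stem cell genes were lower by smaller amounts, 13 of 20, with a median of -0.22 (-0.18 after the correction). Gli3 differed by -1.04, Fabp7 by -0.91, Sox1 by -0.91, the glutamate transporter gene Slc1a3 by -0.78 and the cadherin gene Cdh2 by -0.70. Pou3f2, Notch1 and Prom1 differed by 0.47, 0.34 and 0.29. Astrocyte genes were split. Of 15 measured on both arrays 8 were higher and 7 lower, with a median of 0.08 (0.09 after the correction). With Gfap and Gjb6, measured on the miR-17 array only, the median of the 17 was 0.50 (0.38 after the correction), and it was 0.23 with the mean of probes. Fgfr3 read 2.23 against 0.79 and Gfap was at least 1.80-fold higher, while Aldoc was at -0.90. In tertiary spheres 15 of 17 were lower (median -0.38).

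Every measured cell cycle gene was lower, 28 of 28, but none by 2-fold, and the values lay close together. The median was -0.52, and -0.40 after the level correction, which left all 28 below 0. Mcm5, of the replicative helicase, read 2.36 with miR-17, 3.14 with the control miRNA, and 1.56 and 2.17 with the control and Nr2f1/2 shRNAs. Pcna, the sliding clamp, read 4.91 against 5.54, 4.82 and 4.91, and Cdk1 read 1.14 against 1.81, 1.24 and 1.32. Mki67 read 4.57 against 5.02, 4.95 and 5.11. For 26 of the 28 genes the control miRNA array was the highest of the 4, against 25.8% of all genes. The miR-17 array was the lowest for 8, against 27.7%. The difference therefore set a high control array against a miR-17 array within or near the shRNA arrays. In tertiary spheres 16 of 27 were lower, with a median of -0.08.

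For hypoxia and glycolysis genes the control miRNA array was again mostly the highest, and the differences were larger. Of 18 genes 17 were lower, 7 past 2-fold (against 1.91% of all genes), with a median of -0.73 and of -0.57 after the correction. Adm, the vasodilator adrenomedullin and a target of hypoxia-inducible factor, read -0.15 with miR-17, 2.56 with the control miRNA, -0.41 with the control shRNA and -0.19 with the Nr2f1/2 shRNA. The glucose transporter gene Slc2a1 read 5.56 against 7.07, 5.54 and 5.75, and the hydroxylase gene Egln3 -0.78 against 0.66, -0.36 and -0.12. In each the control miRNA array lay above the other 3, which were close to each other for Adm and Slc2a1 but less so for Egln3. The control miRNA array was the highest of the 4 for 16 of the 18 genes, against 25.8% of all genes. The miR-17 array was the lowest for 9, against 27.7%. Ankrd37, Hk2, Bnip3 and Pdk1 differed by -1.79, -1.16, -1.11 and -1.08, and Vegfa, the endothelial growth factor, by -0.75. In tertiary spheres 15 of 18 were higher (median 0.29). Whether oxygen supply or sphere size differed between the cultures was not tested.

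Reported miR-17 targets were spread on both sides of 0 by small amounts. Of 46 listed, all measured, 31 were lower and 15 higher with miR-17, none by 2-fold, with a median of -0.08. After the level correction 23 were lower and 23 higher (median -0.04). Over the 45 measured on both arrays the median was -0.08, and 0.002 after the correction. Mapk14, the p38 alpha kinase, was read at chr17:28885290-28885349, at 1.68 with miR-17, 2.01 with the control miRNA, and 1.69 and 2.01 with the control and Nr2f1/2 shRNAs, and its second, dimmer probe differed in the other direction (0.31 against -0.33). Rbl1, the pocket protein p107, had the lowest value at 0.39 against 1.27, 0.72 and 0.78, and its second probe differed by -0.11. The ephrin gene Efnb2 and the kinase gene Jak1 differed by -0.80 and -0.44. The Cdk inhibitor gene Cdkn1a, the pro-apoptotic gene Bcl2l11 and the receptor gene Tgfbr2 differed by 0.17, 0.25 and 0.44, and the thioredoxin inhibitor Txnip by 0.80. The miR-17 array was the lowest of the 4 primary arrays for 22 of the 46 (47.8%), against 27.7% of all genes. In tertiary spheres 36 of 46 were lower, with a median of -0.23. Over all genes 51.1% were lower there, with a median of -0.01.

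In the p38 pathway 19 of 23 genes were lower (median -0.21, and -0.16 after the correction), none by 2-fold. The upstream kinase gene Map2k6 differed by -0.61, the downstream kinase genes Mapkapk3, Mapkapk2 and Rps6ka5 by -0.51, -0.47 and -0.54, and Mapk13 by -0.97. Gadd45b, an activator, was at 0.75. Of 15 E2F and pocket protein genes 13 were lower (median -0.25, and -0.22 after the correction), with E2f1, E2f2 and E2f3 at -0.25, -0.33 and -0.23 and Rb1 at 0.04. Of 8 Cdk inhibitor genes 6 were lower (median -0.23, and -0.14 after the correction, which left 4 lower). Only Cdkn2b was past 2-fold, from a control level near background (at least 2.20-fold lower). Over the 7 measured on both arrays the median was -0.18, and 0.01 after the correction. Dicer1 and Ago2, of the miRNA machinery, differed by 0.45 and 0.37, and the exporter gene Xpo5 by -0.54.

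The seed pairs with the letters GCACTTT, and these were sought in the array's 60-base probe sequences, on the transcript strand, since no UTR sequence was used here. They occurred in the probes of 111 genes (0.415%). The median difference was -0.01 in these genes and 0.01 in the rest, and 5 were past 2-fold higher and 1 lower. With CACTTTA, the match to bases 2 to 7 followed by A, the median was -0.09 in 131 genes, and with GCACTTTA, which overlaps both, it was 0.04 in 27. The reverse strand, AAAGTGC, gave 0.04 in 141 genes, and ACTGCAG, the match to miR-17-3p, gave -0.06 in 132. In the order given, the medians after the level correction were -0.01, -0.05, 0.07, 0.04 and -0.08, beside -0.02 in genes without GCACTTT. In tertiary spheres, before any correction, they were -0.11, -0.07, -0.26, 0.05 and 0.01, beside -0.01. A probe covers a small piece of a transcript, so genes without a match here may hold one elsewhere. Shown with the match in capitals and mm9 coordinates in the order of the difference are the 2 lowest and the 2 highest named genes measured on both arrays, with the 3 reported targets that hold a match between them.
Depdc1a (chr3:159192012-159192040, + strand): agagtgaagcaGCACTTTttgatgataaa
Cast (chr13:74831950-74831978, - strand): tacaaacctttGCACTTTatatatacagt
Stat3 (chr11:100749598-100749626, - strand): ctcctggctctGCACTTTcaaccttgcta
Timp2 (chr11:118163146-118163167, - strand): cattagactttGCACTTTtaaa
Txnip (chr3:96365153-96365181, + strand): tgatgttcttaGCACTTTagcttgtcaat
Zfp9 (chr6:118412378-118412398, - strand): atctaactgaaGCACTTTgag
Slc24a2 (chr4:86629325-86629349, - strand): ggggggtGCACTTTaaagtcatctt
Depdc1a differed by -0.84, Cast by -0.70, Stat3 by -0.04, Timp2 by 0.15, Txnip by 0.80, Zfp9 by 0.98 and Slc24a2 by 1.09. The matches in Cast, Txnip and Slc24a2 are followed by A. Cast and Slc24a2 were shown for lying at the ends of the range, so their places say nothing about such matches. Txnip read 2.34 with miR-17 and 1.55 with the control miRNA, while the shRNA arrays read 2.54 and 2.71.

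Signalling lists were mixed. Of 29 Wnt genes 5 were 2-fold lower and 3 higher, against 1.91% and 5.17% of all genes (median -0.05, and 0.01 after the correction). The Wnt enhancers Rspo3 and Rspo1 differed by -1.73 and -1.47, the ligand genes Wnt3 and Wnt8b by -1.49 and -1.15, and Wnt7a and Wnt4 by 1.08 and 1.01. Rspo3 read -0.32 with miR-17 against 1.41 with the control miRNA and 3.45 and 2.92 with the shRNAs. Hedgehog pathway genes had a median of -0.36, but of -0.19 after the correction and of -0.08 with the mean of probes. Gli3 (-1.04) was lower by over 2-fold and Ihh higher (1.28). The brightest Gas1 probe differed by -1.195 and its other 2 probes by -0.21 and -0.12. Of 18 Notch genes 11 were higher (median 0.09, and 0.18 after the correction), Heyl (2.80) and the endothelial tip cell ligand gene Dll4 (0.99) most. BMP and TGF-beta genes had a median of 0.01 (0.03 after the correction), with the ligand gene Tgfb1, at -3.52 against -4.83, among those past 2-fold. JAK-STAT and gliogenic cytokine genes had a median of -0.12 (-0.11 after the correction), with the receptor gene Lifr at 0.92 and Stat3 at -0.04.

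The medians of other lists were 0.08 for retinoic acid genes, 0.60 for 13 interferon genes (-0.02 for 24 with no filter on dim probes), -0.11 for p53 response, -0.07 for immediate early, 0.07 for oligodendrocyte, 0.26 for mesoderm and endoderm, 0.09 for surface ectoderm and choroid, 0.09 for early-stage temporal, 0.01 for miRNA machinery, 0.11 for miRNA host and 0.09 for Nr2f family genes. The median of each of these 11 lists changed sign in at least 1 setting, as did those of the pluripotency, BMP and TGF-beta, Notch and Wnt lists, and no direction is read from them. Unfolded protein and ATF4 genes had a median of -0.29 (-0.19 after the correction), with 14 of 18 lower. Among pluripotency genes (median 0.05, and -0.03 after the correction) Pou5f1 and Nr0b1 were lower (-1.27 and -1.14), while Nanog differed by 0.05. Nr2f1 and Nr2f2, the receptors that the study knocked down, differed by 0.44 and 0.09.

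Further genes differed by large amounts. Among those lower on both arrays, the urea transporter gene Slc14a2 read -1.86 with miR-17 against 0.93, -0.23 and -0.87, and the glycosyltransferase gene Galnt12 read -0.13 against 2.29, 0.63 and 1.92, its second probe differing by -2.50. Slc27a2, a fatty acid transporter, differed by -2.40, the histone gene H3c1 by -2.77 and the GABA receptor gene Gabrg1 by -2.68. The transthyretin gene Ttr, of choroid plexus and visceral endoderm, read -2.72 against -0.49, 1.98 and 2.19, so the miR-17 array was the lowest by more than 2-fold. Among genes measured on a single side, Depp1, a FOXO target, was at least 17.7-fold higher, Gkn2 at least 13.2-fold and the Ras exchange factor gene Rasgrp3 at least 10.66-fold. Apobec2 was at least 8.73-fold lower, the dynein light chain gene Dynlrb2 at least 8.22-fold and Fgf3 at least 5.57-fold.

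The tertiary spheres gave the only other pair of arrays with miR-17 and its control, and the 2 pairs share no array. Of the 1383 genes that were 2-fold higher at P0, 704 were measured at P2, where 460 (65.3%) were higher and 97 (13.8%) 2-fold higher, against 48.9% and 3.09% of all genes. Of the 510 lower genes 380 were measured. At P2 190 (50%) of them were lower and 11 (2.89%) 2-fold lower, against 51.1% and 0.963% of all genes. Of the same 380, 37 (9.74%) were 2-fold higher. Among the 704 genes from the higher group, 21 (2.98%) were 2-fold lower at P2. Both groups thus exceeded all genes in both directions, and the shares over all genes were not matched for level. Across 21597 genes measured in both pairs the differences had a Pearson r of 0.18 and a Spearman rho of 0.18, which is a description across genes that are not independent. Genes that differed at both passages included Tal1 (1.89 and 1.496). Ctla2a, Unc13c, a synaptic vesicle priming gene, and Rasgrp3 were at least 3.43-fold, 2.28-fold and 2.96-fold higher at P2, where the control array did not measure them. Lower at both were the carbonic anhydrase gene Car3 (-1.99 and -1.85), the Nodal antagonist gene Lefty1 (-1.30 and -1.65), the brachyury gene T (-1.44 and -1.17) and the histone gene H3c11 (-1.84 and -1.15).

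With both passages in limma, fitted on all 8 arrays with condition and passage as factors, 0 of 27281 genes passed an adjusted p of 0.05. At an unadjusted p under 0.05 there were 273, of which 205 were higher and 68 lower with miR-17. That balance rested on single arrays. It was 66 higher and 152 lower without the primary miR-17 array, 414 and 71 without the primary control miRNA array, 329 and 120 without the tertiary miR-17 array and 160 and 120 without the tertiary control miRNA array. With the 4 miRNA arrays alone it was 1807 and 472. Tal1 had an effect of 1.69 (SE 0.32) and an adjusted p of 0.9998 in limma. The interaction of miR-17 with passage also called 0 genes, with 298 at an unadjusted p under 0.05. That fit took the change with passage from both controls (miRNA and shRNA) together. It therefore did not test the P0 difference from the control miRNA against the P2 one. For Cd93 the fit gave 4.59, while those differences were 3.32 and 0.70. The first fit had 3 residual degrees of freedom, which hold how the conditions differed in their change with passage. The interaction fit had 1, from how the control miRNA and control shRNA arrays differed in that change.

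**Figure D5:**
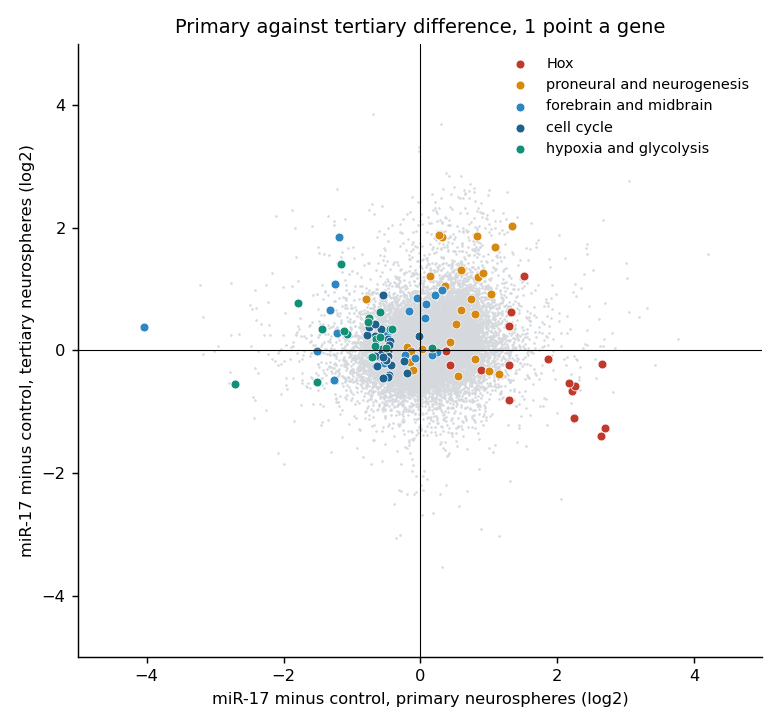
Difference between miR-17 and control miRNA (log2) in tertiary against primary neurospheres, 1 grey point a gene measured at both passages, with members of 5 lists in colour. Most proneural genes lie above 0 on both axes, Hox genes lie to the right and mostly below 0, and Six6 lies at the far left near 0 on the tertiary axis.

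Genes that change as the spheres age were taken from the control shRNA arrays, which are not part of the comparison. The 1106 genes that were 4-fold higher in tertiary than in primary control shRNA spheres had a median difference with miR-17 at P0 of 0.14, and the 669 that were 4-fold lower had a median of 0.01. Of the first group 129 (11.7%) were 2-fold higher and 71 (6.42%) lower with miR-17. Of the second, 64 (9.57%) were higher and 49 (7.32%) lower. Over all genes these shares were 5.17% and 1.91%, and the median was 0.01. Both groups thus exceeded all genes in both directions. The shares include genes measured on 1 array only, whose direction the filter set, and were not corrected for level. Over the 919 and 613 genes measured on both arrays the medians were 0.10 and -0.01, beside -0.01 over all such genes.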

How the data were processed

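Per the file headers, RNA was read on Agilent SurePrint G3 mouse arrays with Feature Extraction 10.7.3.1, and coordinates are mm9. The deposited intensity per spot was detrended and background-subtracted by the authors' scanner software, per the file headers. The authors also deposited a signal table, equal to that intensity divided by 1 constant an array, on a linear scale with no centring by gene (column medians 0.0662 to 0.124). It served as an alternative. Per the labels' protocols, 50 ng of RNA was labelled with Cy3.

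Control spots and 1104 outlier spots were left out, and 28 probes with no spot left were dropped, leaving 55653. Of these, 26413 were named by accession through RefSeq and the other 29240 by the name the files give. The log2 intensity of a probe was the mean over its spots, less the log2 75th percentile of the array. Of several probes the one with the highest mean over the 8 arrays stood for a gene. Where a gene was not well above background on an array, its difference is a bound ("at least"), the bright value against the probe's own dim value or, if higher, the weakest signal on that array that still counted as well above background. All 8 arrays lay on 1 slide scanned once. Differences between single arrays have no test. limma 3.58.1 in R 4.3.3 was used for both passages, two-sided with Benjamini-Hochberg adjustment, and was tested on simulated data. Whether cultures were grown separately is not given. With 1 array a group, the spread behind the limma p-values is how far conditions differed in their change with passage. It holds any effect of the other treatments that varied with passage, and it is not a spread between cultures.

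The 36 gene lists and the members named were chosen with earlier results of these data known. Named were the 12 highest and lowest genes on both arrays, the 6 largest bounds each way, 6 each way at both passages, up to 4 per list, the 6 each way furthest beyond the other primary arrays, and Mapk14, Mir17hg, Nr2f1 and Nr2f2. Other list members are given as examples of their lists, chosen with their values in view. Most members enter only through the counts and medians of their lists, and some of the genes named by the rule are not reported here. A summed signal is the log2 of the members' summed linear values. Alternatives were normexp (offset 50), quantile normalization, median centring, other filters, fold limits and probe rules, the authors' table, arrays left out in limma, and a lowess correction for level (fraction 0.30) that was added after the data were seen.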

Additional observations from a re-analysis of the deposited data

Results flagged for a closer look

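A few named genes differed by over 2-fold between miR-17 and control in opposite directions at the 2 passages. Hoxc6 differed by 2.64 in primary and -1.39 in tertiary spheres, and Fgfr3, an FGF receptor of progenitors and astrocytes, by 1.44 and -1.22. Adamts15, a matrix protease, differed by -2.25 and 1.07, and Lhx2 by -1.25 and 1.08. Each value rests on 1 array a side, and the opposite directions had no replicate check. In limma 0 genes passed for the interaction of miR-17 with passage, and 298 had an unadjusted p under 0.05. That fit pooled the change with passage over the miRNA and shRNA controls, so it did not test the differences given here.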

How the results depend on the processing

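The counts of genes past the limit moved with processing. Higher and lower genes numbered 1383 and 510, with 108 past the limit in the same direction at P2. They were 197 and 145, with 8 at P2, with normexp background correction. Lower genes were 983 after quantile normalization. Higher and lower were 690 and 288 with both arrays well above background, 2407 and 1120 with no filter, 746 and 864 with the level correction added after the data were seen, 4481 and 1738 with 866 at P2 at a 1.5-fold limit, and 208 and 88 with 2 at P2 at a 4-fold limit. Cdkn2b, near background, turned to 0.23 with no filter. Of the 36 lists 21 kept the sign of their median in every setting and 15 did not. In limma 0 genes were called in every fit, with 218 to 485 at an unadjusted p under 0.05 when 1 array was left out. Passage was a factor in these fits, which pairs the arrays of a passage, and the labels number no replicates. Spot noise limits dim genes most, and culture-to-culture spread is unknown.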
